A study of Homo sapiens with 4 samples.

Results

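The genes examined here encode the 3 nuclear RNA polymerases of human cells and the dedicated initiation factors of RNA polymerases I and III. They were taken by gene symbol, as all POLR1, POLR2 and POLR3 genes, the subunits still listed under the older symbols ZNRD1, TWISTNB and CD3EAP, the TAF1A to TAF1D subunits of SL1, UBTF, RRN3, GTF3A, the GTF3C genes, BRF1, BRF2, BDP1 and MAF1. The rule gave 52 of the 25268 gene symbols in the table, and 51 of them had a mean of at least 1 FPKM (fragments mapped to a gene, scaled for its length and for the size of the library) over the libraries, the level required here for calculating a change. The remaining symbol, the antisense RNA GTF3C2-AS1, matched the pattern for GTF3C genes and lay below that level. SK-MEL-28, an established human melanoma cell line, had been transduced with a lentivirus carrying either the empty pTRIPZ vector (vector cells) or a MYC gene under a Tet-inducible promoter (MYC cells), and selected with geneticin. Each line was cultured without doxycycline (Dox), the inducer, or with Dox for 54 h, which gave untreated and Dox-treated vector cells and untreated and Dox-treated MYC cells, 4 conditions with 1 RNA-Seq library each. It is not stated in the sources used here whether a line was grown from 1 clone. With 1 library per condition, differences between conditions have no replicate check and no test was made.

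RNA polymerase I (Pol I) transcribes the large ribosomal RNA precursor in the nucleolus, RNA polymerase II (Pol II) the messenger RNAs and most small nuclear RNAs, and RNA polymerase III (Pol III) the transfer RNAs, 5S ribosomal RNA and other short RNAs. Each enzyme has a pair of large catalytic subunits of its own, a set of smaller subunits of its own, and subunits shared with the others. MYC is a transcription factor that binds DNA with its partner MAX at E-boxes, and it is known for raising the making of ribosomes, for which all 3 polymerases are needed. Pol I is recruited by SL1, UBTF and RRN3. Pol III is recruited by TFIIIA, TFIIIC and TFIIIB, and is restrained by MAF1.

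Approximate depth was 35000000 to 42000000 fragments per library, derived from genes with very low values. MYC itself, the check of the labels, had 58.3 FPKM in untreated vector cells, 54.8 in Dox-treated vector cells, 76.5 in untreated MYC cells and 87.1 in Dox-treated MYC cells. The log2 change of MYC with Dox was thus 0.19 in MYC cells and -0.09 in vector cells, while the untreated lines already differed by 0.39, so that this check gave the labelled direction but less than 1.5-fold. The melanocyte genes MITF, SOX10, PMEL, MLANA, TYR and DCT were all present, with a summed level of 7743 to 7891 FPKM in the 3 libraries without MYC induction and 4400 FPKM in Dox-treated MYC cells. Markers of other cell types (PTPRC, PECAM1, EPCAM and KRT14) summed to 0.744 to 0.950 FPKM in those 3 libraries and to 2.85 FPKM in Dox-treated MYC cells, of which EPCAM gave 2.71 FPKM, while PTPRC was listed at 0 in the 3 libraries and PECAM1 was at or near 0 in all 4. The part of these shifts in the values below was not tested, and in bulk RNA a smaller share of cells and less RNA per cell cannot be told apart. FPKM is a share of each library, so a rise of total RNA per cell is not seen in it.

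Most genes of the polymerase machinery had higher levels with Dox in MYC cells, with the highest median change among the subunits found in Pol I alone. The change of a gene is the difference of log2(FPKM + 0.1) with and without Dox, which understates the change of low genes, and a gene is said to have risen or fallen when it changed at least 1.5-fold. Of the 51 genes, 7 rose in MYC cells (CD3EAP, POLR1B, POLR3E, POLR1E, TWISTNB, POLR1C and GTF3A), set against 5.90% of all 11147 genes that averaged 1 FPKM or more. None of the 51 fell, set against 8.85% of all genes. By 25% or more, 24 of the 51 were higher, set against 16.9% of all genes, and by 20% or more, 1 (POLR3GL) was lower, set against 21.4%. The median log2 change of the 51 genes was 0.31, beside -0.03 for all genes, and 42 of the 51 had a value above 0, as did 46.8% of all genes. In vector cells the median was 0.03, beside 0.01 for all genes, and the changes of the 51 genes ran from -0.16 to 0.23. None of them rose or fell 1.5-fold in those cells, where 0.709% of all genes rose and 0.440% fell. The change was larger in MYC cells than in vector cells for 39 of the 51 genes and for 45.5% of all genes.

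**Figure D1:**
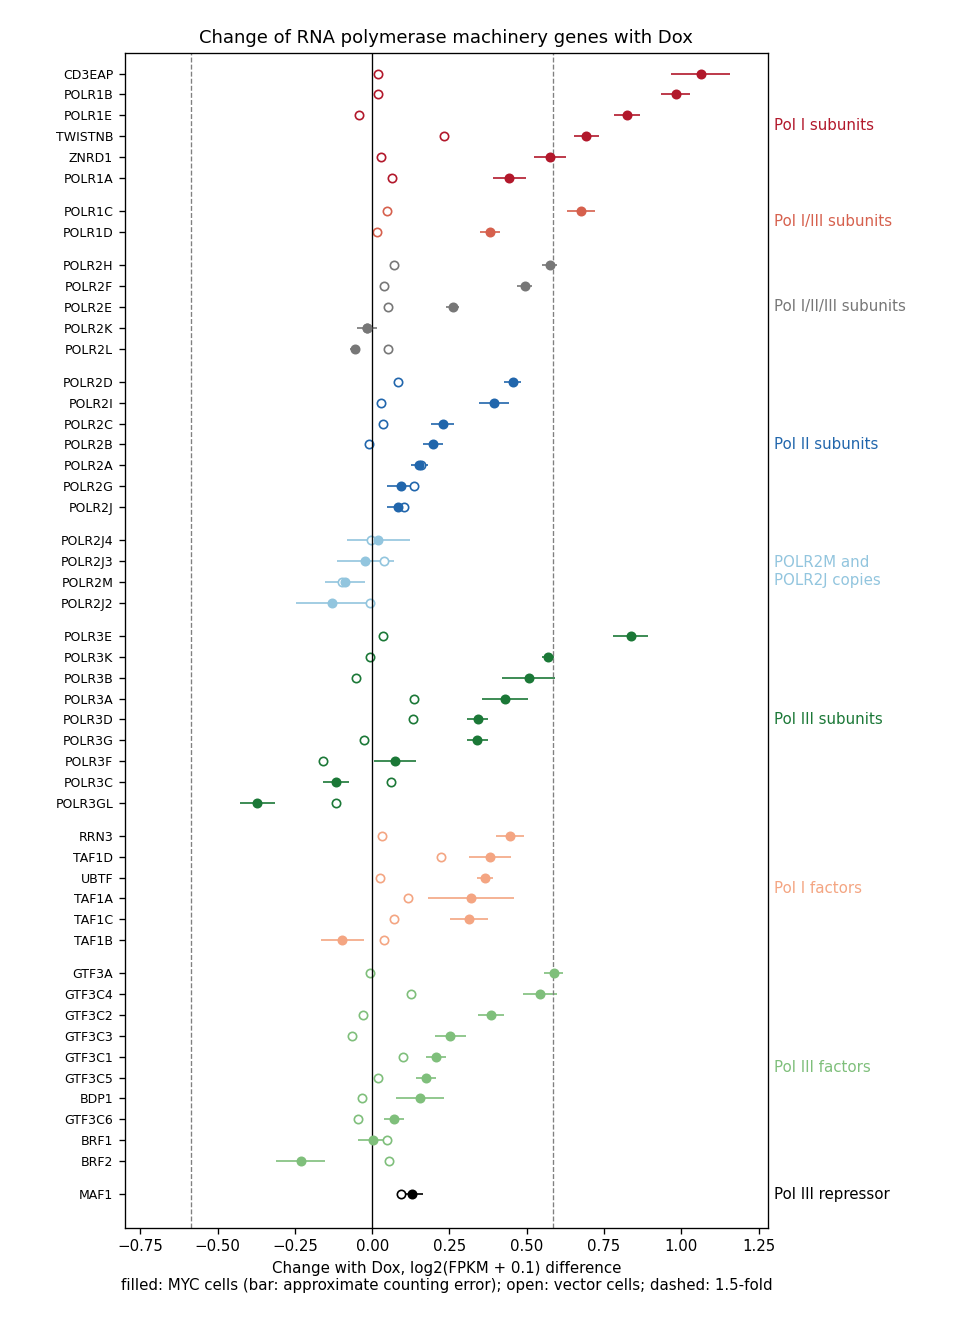
Log2 change with Dox (x axis, difference of log2(FPKM + 0.1)) of 50 of the genes in MYC cells (filled points, bars show the approximate counting error of 1 library pair) and in vector cells (open points), by role, with dashed lines at 1.5-fold. All 6 subunits of Pol I alone lie at 0.44 or above in MYC cells, whereas the open points of vector cells stay between -0.16 and 0.23.

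The levels in the 3 libraries without MYC induction lay close together. The highest of these 3 values was a median of 1.06 times the lowest over the 51 genes, and at most 1.24 times, for POLR2A. In Dox-treated MYC cells, 38 of the 51 genes lay above all 3 of these values and 5 lay below, beside 40.2% and 42.9% of all genes. The 5 were POLR2L, POLR2J2, POLR3C, POLR3GL and BRF2. The counting error of a change, which reflects only how many fragments were sampled and leaves out variation between cultures, was 0.016 to 0.14 on the log2 scale, with a median of 0.044.

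Among the subunits of Pol I alone, 4 of 6 rose in MYC cells and the others had changes of 0.57 and 0.44, with a median of 0.76. CD3EAP (now named POLR1G, on chromosome 19 of GRCh37 from 45909902 to 45913995), which together with POLR1E forms a subcomplex of Pol I related to initiation and elongation factors, had 2.74 FPKM in untreated vector cells, 2.78 in Dox-treated vector cells, 2.90 in untreated MYC cells and 6.16 in Dox-treated MYC cells. It stood level in the 3 libraries without MYC induction and was more than doubled in the library with it, and its log2 change of 1.06 (counting error 0.095) was exceeded by 92 of the 11147 genes. POLR1B (chromosome 2, 113299492 to 113337395), the second largest subunit and part of the active centre, had 4.43, 4.49, 4.54 and 9.07 FPKM in the same order. Its change was 0.98 in MYC cells and 0.02 in vector cells. POLR1E (chromosome 9, 37485945 to 37503694) had 25.5, 24.7, 25.5 and 45.2 FPKM, a change of 0.82 beside -0.04 in vector cells. TWISTNB (now POLR1F, chromosome 7, 19735084 to 19748660), a subunit of the stalk to which RRN3 binds, had 12.3, 14.5, 13.2 and 21.5 FPKM. It was the gene of this machinery with the largest change in vector cells, 0.23 beside 0.69 in MYC cells, and set against Dox-treated vector cells its difference was 0.57, below 1.5-fold. ZNRD1 (now POLR1H), which serves in RNA cleavage by the enzyme, had 37.8, 38.6, 37.4 and 55.7 FPKM and a change of 0.57. POLR1A, the largest subunit, had the lowest level and the smallest change of the 6, with 2.42, 2.54, 2.42 and 3.32 FPKM and a change of 0.44. For each of the 6 genes the library with MYC induction was the highest.

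CD3EAP lies opposite to ERCC1, a DNA repair gene, with which it shares 1593 exonic bases, and whether the FPKM values used the strand of the reads is not stated. ERCC1 had 119 FPKM in untreated vector cells and 125 with Dox, and 117 and 89.4 FPKM in MYC cells, a change of -0.39. In Dox-treated MYC cells the overlapping genes thus differed from untreated MYC cells in opposite directions.

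**Figure D2:**
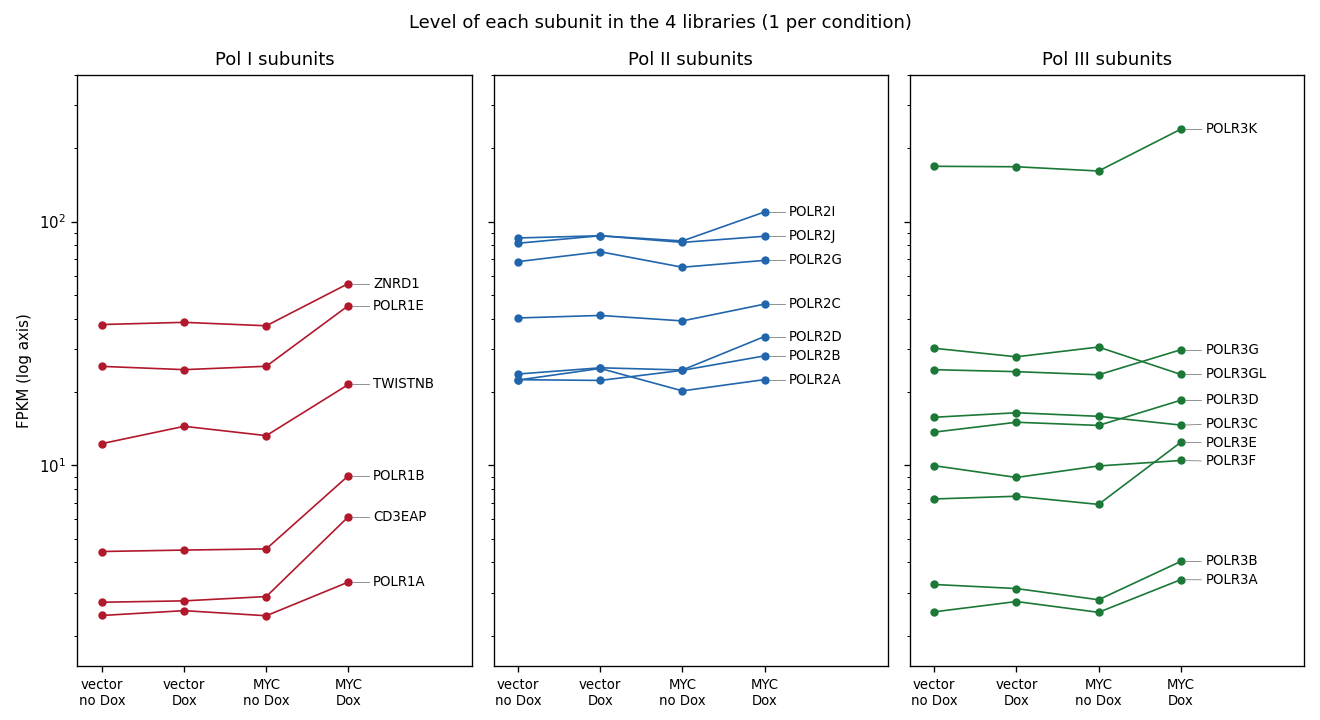
FPKM on a log axis of the 6 subunits found in Pol I alone, the 7 in Pol II alone and 9 of those in Pol III alone, in the 4 libraries (1 per condition, lines join the values of 1 gene). The Pol I lines run nearly flat over the first 3 libraries, except TWISTNB at 12.3 FPKM in untreated and 14.5 in Dox-treated vector cells. All are higher in Dox-treated MYC cells. The Pol II lines lie between 20.2 and 109 FPKM, and POLR3G and POLR3GL change places.

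The canonical E-box CACGTG, which reads the same on both strands, was looked for in the RefSeq promoters (GRCh38.p14, 250 bases before to 50 after each start). Of the 52 genes, 40 had an entry, 3 of them under a newer symbol. The E-box was present for 7 of the 40, or 17.5%, beside 13.2% of 8384 matched genes that averaged 1 FPKM or more. It was found for 5 of 20 genes that were at least 25% higher with Dox in MYC cells (CD3EAP, POLR3E, GTF3C4, POLR3A and GTF3C2) and for 2 of the 19 other genes above 1 FPKM (POLR3C and GTF3C6). The share among all genes at least 25% higher with Dox was not calculated, so these counts have no matching background. A relation between the E-box and the change was not tested. In CD3EAP, GTF3C4 and POLR3A it lay within the 35 bases before the start, and in POLR3E it spanned the start. Those 4 stretches are shown from 100 bases before to 10 after the start, with the E-box in capitals, because they place the motif beside or across the start of genes with changes of 0.43 to 1.06.
CD3EAP (chr19:45406544-45406653, plus strand): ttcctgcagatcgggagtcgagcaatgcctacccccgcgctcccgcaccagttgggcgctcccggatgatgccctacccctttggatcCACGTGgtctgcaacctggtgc
POLR3E (chr16:22297309-22297418, plus strand): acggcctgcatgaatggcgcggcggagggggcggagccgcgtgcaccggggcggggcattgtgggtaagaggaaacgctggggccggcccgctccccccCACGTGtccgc
GTF3C4 (chr9:132669935-132670044, plus strand): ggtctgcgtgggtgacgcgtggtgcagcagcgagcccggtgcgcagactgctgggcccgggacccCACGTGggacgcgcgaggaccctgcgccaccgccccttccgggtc
POLR3A (chr10:78029506-78029615, minus strand): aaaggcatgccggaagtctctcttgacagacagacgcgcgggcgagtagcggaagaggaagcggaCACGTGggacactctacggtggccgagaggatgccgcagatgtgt
The E-box began 12 bases before the start of CD3EAP, 1 base before that of POLR3E and 35 bases before those of GTF3C4 and POLR3A. POLR1B, TWISTNB, ZNRD1 and POLR1A, which were also higher with Dox in MYC cells, had no CACGTG in this window, and POLR1E had no entry. A match is a run of letters and not evidence of binding.

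POLR1C and POLR1D, the assembly platform that Pol I and Pol III have in common, were both higher in the library with MYC induction than in the other 3. POLR1C (chromosome 6, 43477440 to 43530156) had 31.2 FPKM in untreated vector cells, 32.2 in Dox-treated vector cells, 32.0 in untreated MYC cells and 51.2 in Dox-treated MYC cells, and rose by 0.68 on the log2 scale. POLR1C shares exonic bases with genes on the opposite strand: 348 with XPO5, 140 with LRRC73, 129 with YIPF3 and 392 with another annotated gene. POLR1D had 122, 123.2, 120 and 157 FPKM in the same order, a change of 0.38. In vector cells the changes were 0.05 and 0.02.

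The 5 subunits common to all 3 enzymes are listed under POLR2 symbols, and they divided into 3 genes that were higher in the library with MYC induction and a pair that was not. POLR2H (chromosome 3, 184079498 to 184086384) had 86.7, 91.1, 86.0 and 128 FPKM in the 4 conditions, in the order untreated vector, Dox-treated vector, untreated MYC and Dox-treated MYC cells, a change of 0.57. POLR2F, which shares 260 exonic bases with SOX10 on the opposite strand, had 78.8, 80.8, 75.9 and 107 FPKM, a change of 0.49. POLR2E had 86.0, 89.0, 78.9 and 94.4 FPKM, a change of 0.26. POLR2E was already lower in untreated MYC cells than in untreated vector cells, by 0.12, and its difference from Dox-treated vector cells was 0.09. The small zinc-binding subunits POLR2K and POLR2L were level or lower. POLR2K stayed between 107 and 108 FPKM in all 4 libraries. POLR2L, the most abundant of all the genes examined, had 493, 510, 472 and 455 FPKM and a change of -0.05.

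The subunits of Pol II alone had smaller changes. None of the 7 rose, the changes in MYC cells were 0.08 to 0.45 with a median of 0.20, and those in vector cells were -0.01 to 0.16 with a median of 0.08. POLR2A (chromosome 17, 7387685 to 7417933), the largest subunit, which carries the heptad repeats of the C-terminal domain, had 22.4 FPKM in untreated vector cells, 24.98 in Dox-treated vector cells, 20.2 in untreated MYC cells and 22.5 in Dox-treated MYC cells. Its change was 0.15 in MYC cells and 0.16 in vector cells, and its highest value was that of Dox-treated vector cells, against which the library with MYC induction was lower by 0.15. POLR2G and POLR2J were likewise highest in Dox-treated vector cells, at 75.2 and 87.5 FPKM, and their changes of 0.09 and 0.08 in MYC cells were below those of 0.13 and 0.10 in vector cells. POLR2B, the second largest subunit, had 22.5, 22.3, 24.5 and 28.1 FPKM, a change of 0.20. The largest change in this set was that of POLR2D, which pairs with POLR2G on the stalk of the enzyme and had 23.7, 25.1, 24.6 and 33.8 FPKM, a change of 0.45. POLR2I followed at 0.39 and POLR2C at 0.23. Of the 7 genes, 4 (POLR2D, POLR2I, POLR2C and POLR2B) were highest in the library with MYC induction.

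POLR2M, which encodes a protein that associates with Pol II, and the POLR2J copies POLR2J2, POLR2J3 and POLR2J4 showed changes of -0.13 to 0.02 in MYC cells and -0.10 to 0.04 in vector cells, and none was highest in the library with MYC induction. The POLR2J copies are near-identical to POLR2J, so reads may have been divided among them, and POLR2M shares 1321 exonic bases with GCOM1.

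Among the 10 genes taken by symbol as subunits of Pol III alone, 1 rose and 7 were above all 3 other libraries without reaching 1.5-fold. POLR3C and POLR3GL were below. The median change was 0.34 in MYC cells and -0.01 in vector cells. POLR3E (chromosome 16, 22308696 to 22346422), which with POLR3D forms the Pol III counterpart of the CD3EAP and POLR1E subcomplex, had 7.28 FPKM in untreated vector cells, 7.47 in Dox-treated vector cells, 6.92 in untreated MYC cells and 12.4 in Dox-treated MYC cells. It rose by 0.84, with a counting error of 0.056, and 212 of the 11147 genes had a larger change. POLR3E shares 751 exonic bases with another annotated gene on the opposite strand. POLR3D, its partner, had 13.7, 15.0, 14.6 and 18.5 FPKM, a change of 0.34 beside 0.13 in vector cells. POLR3K (chromosome 16, 96407 to 103608), the counterpart of ZNRD1 in RNA cleavage, had 169, 168, 161 and 239 FPKM, a change of 0.57, equal to that of ZNRD1 to 2 decimals. The catalytic pair POLR3A and POLR3B was scarce in all libraries. POLR3A had 2.51, 2.76, 2.49 and 3.40 FPKM, a change of 0.43, and POLR3B had 3.246, 3.12, 2.81 and 4.03 FPKM, a change of 0.51. Untreated MYC cells were the lowest of the 4 for POLR3B, and against Dox-treated vector cells the differences were 0.29 for POLR3A and 0.36 for POLR3B. POLR3F had a change of 0.07 beside -0.16 in vector cells. POLR3C, of the subcomplex that opens promoter DNA together with POLR3F and POLR3G or POLR3GL, had 15.8, 16.4, 15.9 and 14.6 FPKM, a change of -0.12.

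POLR3G and POLR3GL encode alternative forms of the same Pol III subunit. POLR3G is known as the form of embryonic and tumour cells, and POLR3GL as the form present in most tissues. POLR3G (chromosome 5, 89767565 to 89810374) had 24.7, 24.2, 23.5 and 29.8 FPKM in the 4 conditions, in the order untreated vector, Dox-treated vector, untreated MYC and Dox-treated MYC cells. POLR3GL (chromosome 1, 145456236 to 145470400) had 30.2, 27.9, 30.6 and 23.6 FPKM. By FPKM, POLR3GL was the more abundant form in the 3 libraries without MYC induction, and POLR3G in the library with it. POLR3GL shares 382 exonic bases with another annotated gene on the same strand, and POLR3G shares 260 with MBLAC2 on the opposite strand. These levels may thus depend on how reads were assigned. The ratio of POLR3G to POLR3GL, which does not depend on how libraries are scaled, was 0.817 in untreated vector cells, 0.869 in Dox-treated vector cells, 0.769 in untreated MYC cells and 1.26 in Dox-treated MYC cells. On the log2 scale this ratio was higher with Dox by 0.71 in MYC cells, with a counting error of 0.067, and by 0.09 in vector cells, with a counting error of 0.069. The separate changes were 0.34 for POLR3G and -0.37 for POLR3GL, both under 1.5-fold, and the change of POLR3GL was the lowest of all 51 genes. The change of POLR3GL in vector cells was -0.12.

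**Figure D3:**
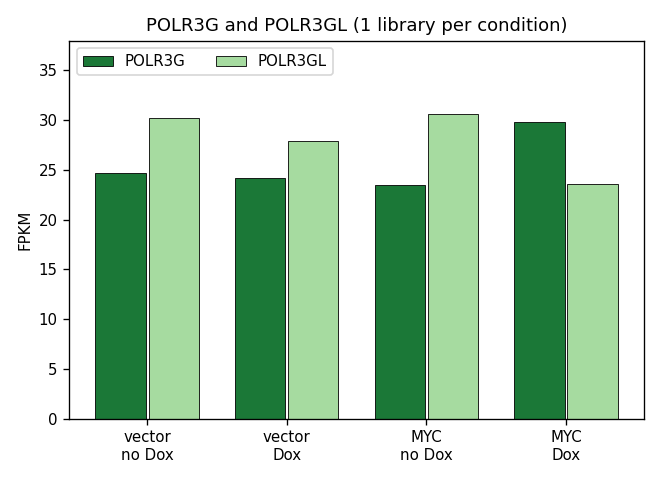
FPKM of POLR3G and POLR3GL in the 4 libraries, 1 per condition, as bars from 0. POLR3GL is the higher bar in the first 3 libraries and POLR3G in Dox-treated MYC cells, at 29.8 against 23.6 FPKM.

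Side by side, the median change in MYC cells was 0.76 for the 6 subunits of Pol I alone, 0.34 for the 10 of Pol III alone and 0.20 for the 7 of Pol II alone, with 0.53 for the pair that Pol I and Pol III share and 0.26 for the 5 that all 3 share. With the shared subunits counted in, the median was 0.57 over the 13 genes of Pol I. It was 0.34 over the 17 of Pol III and 0.21 over the 12 of Pol II. These sets hold only genes taken by the symbol rule. POLR3G and POLR3GL, alternative forms of 1 subunit, are counted apart in the sets of Pol III. The summed level of the subunits of Pol I alone was 85.2 FPKM in untreated and 87.6 in Dox-treated vector cells, 86.0 in untreated and 141 in Dox-treated MYC cells. For Pol III alone it was 319, 317, 308 and 404 FPKM in the same order, and for Pol II alone 344, 364, 339 and 396 FPKM. The smallest change among the subunits of Pol I alone, 0.44 for POLR1A, lay just under the largest among those of Pol II alone, 0.45 for POLR2D, and the subunits of Pol III alone spread over both, from -0.37 to 0.84. Under the other scalings, pseudocounts, filters and references tried, the medians stayed within 0.71 to 0.82 for Pol I and 0.29 to 0.37 for Pol III. For Pol II they stayed within 0.15 to 0.23, and the order of the 3 was the same. Rescaling shifts all genes nearly alike, and removing the filter left these medians as they were. Those settings could therefore not alter the order. The difference between the polymerases was not tested, since the subunits of 1 enzyme are not replicates. The largest catalytic subunits had similar changes in Pol I and Pol III, 0.44 for POLR1A and 0.43 for POLR3A, beside 0.15 for POLR2A, whereas the second largest differed more, at 0.98 for POLR1B, 0.51 for POLR3B and 0.20 for POLR2B.

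**Figure D4:**
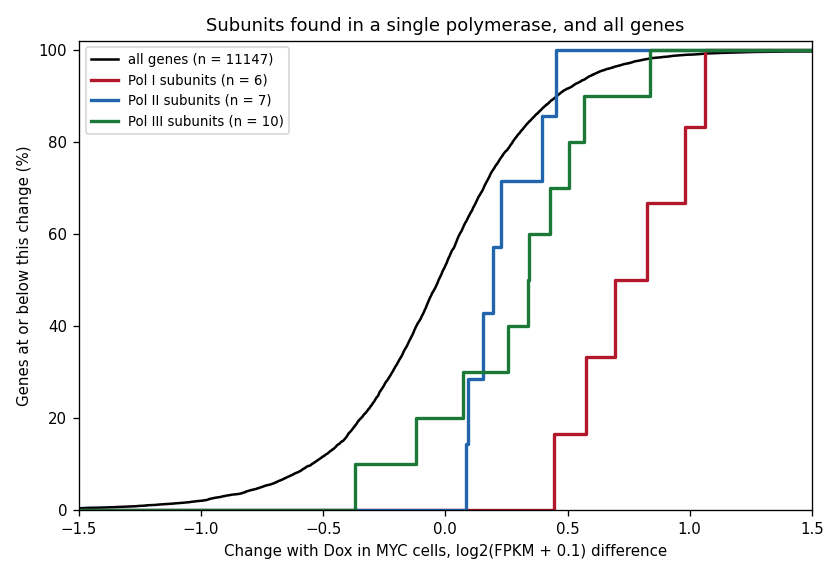
Cumulative share of genes (y axis, percent) at or below each log2 change with Dox in MYC cells (x axis), for all 11147 genes and for the subunits found in a single polymerase. The Pol I curve begins at 0.44, beyond nearly the whole Pol II curve, which ends at 0.45, and the Pol III curve spans from -0.37 to 0.84.

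The factors that recruit Pol I were mostly higher in the library with MYC induction, and none rose 1.5-fold. Their median change was 0.34 in MYC cells and 0.06 in vector cells. RRN3 (chromosome 16, 15153890 to 15188168), which makes Pol I competent for initiation, had 12.3, 12.5, 11.8 and 16.0 FPKM in the 4 conditions, in the order untreated vector, Dox-treated vector, untreated MYC and Dox-treated MYC cells, a change of 0.44. UBTF (chromosome 17, 42282401 to 42298994), which binds along the ribosomal DNA, had 24.8, 25.2, 25.9 and 33.4 FPKM, a change of 0.36 beside 0.03 in vector cells. Among the SL1 subunits the change was 0.38 for TAF1D, 0.32 for TAF1A and 0.31 for TAF1C. In vector cells the change of TAF1D was 0.22. TAF1B was the exception, with 8.87, 9.11, 9.72 and 9.08 FPKM and a change of -0.10. RRN3 has related copies, of which RRN3P3 had 1.59 to 1.90 FPKM and the others less than 0.4 FPKM.

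Of the 10 factors that recruit Pol III, 1 rose, and the median change was 0.19 in MYC cells and 0.01 in vector cells. GTF3A (chromosome 13, 27998756 to 28009960), the TFIIIA that serves the 5S ribosomal RNA genes, shares 181 exonic bases with MTIF3 on the opposite strand. GTF3A had 63.5, 63.2, 62.6 and 94.2 FPKM, and its change of 0.59 was just past 1.5-fold. It was short of 1.5-fold under 4 of the alternatives, at 0.54 with libraries rescaled to the same sum, 0.57 against Dox-treated vector cells, and 0.58 with the upper quartile or a pseudocount of 1. The genes just short of the threshold were ZNRD1, POLR2H and POLR3K, at 0.57, and with scaling by the median ratio all 3 were past it, at 0.60. All 6 TFIIIC subunits were highest in the library with MYC induction, with a median of 0.23. Among them GTF3C4 (chromosome 9, 135545422 to 135570340) had the largest change, from 3.21 to 4.73 FPKM or 0.54, and its untreated level was already higher in MYC cells than in vector cells, by 0.25. Set against Dox-treated vector cells, the difference of GTF3C4 was 0.67, past 1.5-fold. TFIIIC recognises the promoters inside transfer RNA genes, with GTF3C1 as its largest subunit. The change was 0.39 for GTF3C2, 0.25 for GTF3C3, 0.21 for GTF3C1, 0.17 for GTF3C5 and 0.07 for GTF3C6. The TFIIIB genes BRF1, BRF2 and BDP1 had a median of 0.0034, that of BRF1. TBP, also part of TFIIIB, is given below with the general factors of Pol II. The change of BRF1 was below 0 with libraries rescaled to the same sum, at -0.04, or to the upper quartile, at -0.01. BRF1, which serves transfer RNA and 5S genes, had 10.3, 10.7, 11.1 and 11.1 FPKM and thus stayed level. BRF2, its relative at the U6 and similar genes, had 6.91, 7.18, 6.86 and 5.83 FPKM, a change of -0.23 with a counting error of 0.080, and was lowest in the library with MYC induction. BRF2 shares 1629 exonic bases with ADGRA2 (listed as GPR124) on the opposite strand. That gene had 0.516 FPKM in untreated and 0.236 in Dox-treated MYC cells, and its part in the values of BRF2 was not tested. BDP1 had 1.46, 1.43, 1.49 and 1.67 FPKM, a change of 0.15, which lay within the range of the TFIIIC subunits. The repressor MAF1 had 43.6, 46.5, 43.9 and 48.0 FPKM, and its changes were close in both lines, at 0.13 in MYC cells and 0.09 in vector cells.

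The levels of subunits of 1 enzyme, in FPKM and so per length, differed widely, although an enzyme holds most of its subunits in equal number. As means over the 4 libraries they ran from 2.67 FPKM for POLR1A to 42.4 FPKM for ZNRD1 in Pol I alone, from 22.5 FPKM for POLR2A to 91.5 FPKM for POLR2I in Pol II alone, and from 2.79 FPKM for POLR3A to 184 FPKM for POLR3K in Pol III alone. The value of ZNRD1 is the sum of 8 rows, whereas each of the other genes examined had 1 row. The largest subunit was the scarcest in each of the 3 sets. Over the 30 subunits that belong to 1 or more polymerases, level and annotated transcript length were inversely related. Spearman's rho was -0.76 and Pearson's r -0.74 on log2 scales, as a description across genes that share these 4 libraries. FPKM is itself divided by length, so part of this relation can come from the calculation. The lengths used for the deposited values are not known. The change in MYC cells followed neither the level (rho of -0.03 over the 51 genes) nor the length (rho of 0.18).

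Lists of related transcription genes differed in their medians. Of 26 general factors of Pol II (TFIIA, TFIIB, TFIIE, TFIIF, TFIIH and TFIID), none rose or fell 1.5-fold, and the median change was 0.16 in MYC cells and 0.03 in vector cells. The extremes were TAF11, with 26.8 FPKM without and 39.01 FPKM with Dox and a change of 0.54, and TAF10, with 278 and 215 FPKM and a change of -0.37. TBP, looked up after the values were seen because SL1 and TFIIIB also contain it, had a change of 0.26. All 9 assembly factors of the polymerases were highest in the library with MYC induction, with a median of 0.21. RUVBL1, an ATPase of the chaperone complex that assembles the polymerases and other machines, rose from 43.4 to 76.7 FPKM or 0.82, while RPAP2 had the smallest change, 0.08. SNAPC4, the largest subunit of the complex that activates snRNA genes of both Pol II and Pol III, had 4.38 and 4.73 FPKM in vector cells and rose from 4.46 to 9.84 FPKM in MYC cells, a change of 1.12. The other 4 SNAPC genes had changes of -0.23, for SNAPC2, to 0.09. The 4 genes of mitochondrial transcription had a median of 0.75, and 3 of them rose. TFB2M, an initiation factor, went from 21.8 to 37.9 FPKM, a change of 0.79, followed by 0.76 for the mitochondrial polymerase POLRMT and 0.73 for TFAM. TEFM, the elongation factor, had a change of 0.28.

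**Figure D5:**
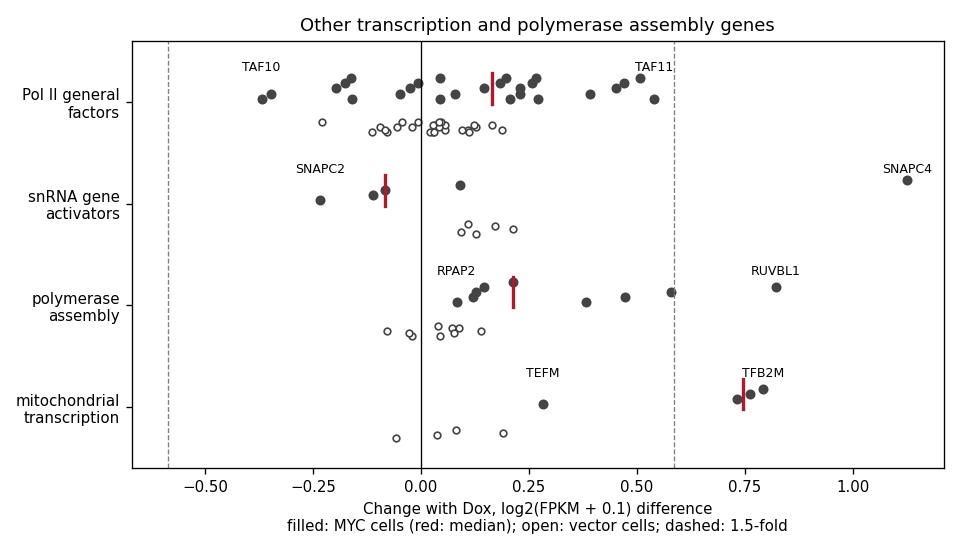
Log2 change with Dox (x axis) of genes of 4 related lists in MYC cells (filled points, red bar for the median) and vector cells (open points), with dashed lines at 1.5-fold and the genes with the largest and smallest change named. SNAPC4 at 1.12 stands far from the other SNAPC genes, and 3 of the 4 mitochondrial genes lie beyond 1.5-fold.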

How the data were processed

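RNA-Seq was measured in 4 libraries of SK-MEL-28 cells, 1 for each condition, and the values deposited by the authors are FPKM by gene. The submitters' processing notes name TopHat2 2.0.14, Cufflinks and hg19 (GRCh37), and the annotation and strand setting are not given in the sources used here. Of 27032 rows, 1 named no gene and was dropped, and the rows of each symbol were added together, which concerned 609 symbols, ZNRD1 among them. From these values log2(FPKM + 0.1) differences were calculated for the 11147 genes that averaged 1 FPKM or more. FPKM values are not counts, so no count model was fitted, and 1 library per condition allows no test.

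The genes, the lists and the rule for named genes were chosen with earlier results of these data known. Named are the 2 largest subunits of each polymerase, POLR3G, POLR3GL, UBTF, RRN3, BRF1, BRF2, BDP1, MAF1, genes past 1.5-fold, and the extremes of each role group or list; others are given where a role group is described gene by gene. Depth came from the commonest ratio between values under 0.05 FPKM and from 136 genes with 1 annotated transcript (quartiles 32900000 and 40800000 fragments for untreated vector cells). Counting errors follow from it and from the length of the canonical transcript, and are approximate. Positions and lengths came from GENCODE release 44 on GRCh37, and promoters from RefSeq on GRCh38.p14. Exons of another gene overlapped those of 34 of the 52 genes. The single values of 1 gene, which is kept in the counts and medians, are not reported here. The calculation of changes and the 1.5-fold call were tested on simulated data with known 2-fold changes, and the other steps were not. As alternatives, the pseudocount was set to 1 or 0.01, the filter was removed or set at 5 FPKM, and values were rescaled to equal sums, upper quartiles or median ratios. Further alternatives were Dox-treated vector cells as the reference, thresholds at 25% and at 2-fold, the mean in place of the median, symbols with several rows left out, and added E-box forms. Python 3.11.15, numpy 2.4.6, pandas 2.3.3, scipy 1.17.1 and matplotlib 3.10.9 were used.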

Additional observations from a re-analysis of the deposited data

Results flagged for a closer look

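For 17 of the 50 genes shown singly the change with Dox had opposite signs in MYC cells and vector cells. The share among all genes was not calculated, so this count has no background. Some of the changes in vector cells were smaller than their counting error, so their sign is uncertain. Examples are GTF3A, at -0.006 with a counting error of 0.035, and POLR3K, at -0.006 with 0.022. With 1 library per condition, no difference between the lines could be tested. Among genes above 0 in MYC cells and below 0 in vector cells, the change in MYC cells minus that in vector cells was 0.87 for POLR1E, 0.59 for GTF3A, 0.57 for POLR3K, 0.56 for POLR3B, 0.41 for GTF3C2, 0.37 for POLR3G, 0.32 for GTF3C3, 0.23 for POLR3F, 0.21 for POLR2B, 0.19 for BDP1, 0.12 for GTF3C6 and 0.025 for POLR2J4. Among genes with the other order it was -0.29 for BRF2, -0.18 for POLR3C, -0.14 for TAF1B, -0.10 for POLR2L and -0.060 for POLR2J3. The medians of the subunits of Pol III alone also had opposite signs, and they differed by 0.35. The changes of these 17 genes in vector cells lay between -0.16, for POLR3F, and 0.06, for POLR3C.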

How the results depend on the processing

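No paired analysis was possible because, with 1 library a condition, no replicate numbers exist. Of 133 recalculated summary values, 128 stayed within the limits used (1.5 times for counts, and for medians 0.11 on the log2 scale, the robust SD over all genes of the change in vector cells). The 7 genes that rose became 24 when a change of 25% sufficed, beside 16.9% of all genes. By as large a fold 1 gene was lower, beside 21.4%. At 2-fold 1 (CD3EAP) remained, and the share of all genes at 2-fold was not calculated. Rescaling to equal sums gave 6 genes, beside 4.71% of all genes. Upper quartiles gave 6, beside 5.62%, and median ratios 10, beside 6.68%. Against Dox-treated vector cells the median of the subunits common to all 3 polymerases was 0.086. With the E-box forms CATGTG or CACATG and CGCGTG or CACGCG added, 47.5% of the 40 promoters held a match, beside 38.8% of those of all genes averaging 1 FPKM or more. Single genes gave 441 values, of which 18 moved by more than 0.11. Apart from CD3EAP and POLR1B with a pseudocount of 1, all of these moved with Dox-treated vector cells as the reference. The filters and the removal of symbols with several rows could not change a single value. The scalings shifted all genes nearly alike, so the number of unmoved values says little. Of these 441 values, 12 had the other sign. They were those of POLR2A (-0.15), POLR2G (-0.12), POLR2J, POLR2J3, POLR2J4, POLR2K and POLR2M against Dox-treated vector cells, of BRF1 and POLR2J4 with libraries rescaled to the same sum, of BRF1 with the upper quartile, and of POLR2J3 and POLR2K with the median ratio. The depth limits low genes most, as for TAF1A, whose counting error was 0.14.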

Other observations

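GTF3C2-AS1, which shares exonic bases with GTF3C2 on the opposite strand, had 0.107 FPKM in untreated vector cells, 0.040 in Dox-treated vector cells, 0.066 in untreated MYC cells and 0.106 in Dox-treated MYC cells, and no change was calculated for it.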
